A study of Saccharomyces cerevisiae with 12 samples.

Results

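YHB1 (YGR234W) is the budding yeast gene for flavohaemoglobin, and its RNA was followed over 12 arrays that set snf/swi mutants against wild type in minimal and in rich medium. Its members here are every probe that the platforms' gene tables name YHB1, which were 3 of 21616 probes, 1 on each of 3 array platforms, and 1 of 5574 named genes. YHB1 was chosen because its values in rich medium and its difference between media were the lowest or next to lowest of all genes in earlier results of these arrays. YHB1 was thus selected on its measured log2 ratios in the 4 groups and their differences between media, which are given as a description, with no test.

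Flavohaemoglobin joins a globin that binds haem to a reductase that binds the flavin FAD. It takes electrons from NADPH or NADH and, with oxygen, turns nitric oxide into nitrate, and it is the main protection of yeast against nitric oxide. The zinc finger factor Fzf1 is known to switch YHB1 on when nitric oxide is present. Snf/Swi is a complex that moves nucleosomes with the energy of ATP and is known to be needed for transcription of some genes and for repression of others.

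Each array was a 2-channel hybridisation of total RNA. Channel 1 held RNA of strain FY31, labelled as a deletion of snf2 (the ATPase of Snf/Swi), or of strain YPS1, labelled as a deletion of swi1 (another subunit). Channel 2 held RNA of the wild type FY2. The 4 groups were snf2 minimal, swi1 minimal, snf2 rich and swi1 rich, rich being YPD, with 3 arrays each. Replicates 2 and 3 of every group shared 1 platform (8 arrays), and replicate 1 lay on 2 others, 1 for each medium. The labels do not say whether a group's arrays hold RNA of separate cultures, so the spread behind each p-value may be technical. Growth phase, other alleles and the extent of each deletion were not analysed here.

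Values are log2 of mutant over wild type, with each array centred on its median gene. The labels name no dyes. This direction is likely, not certain: the wild type is in channel 2, comes first in the sample names, and the scanning software's ratio is channel 2 over channel 1, so the deposited sign was turned. With the opposite reading every value below changes sign and YHB1 would be higher in the mutants. SER3, which Snf/Swi is known to repress, stood at 1.52 ± 0.12 in snf2 minimal and 3.79 ± 0.12 in snf2 rich in this direction (estimate ± SE from limma, n = 2 arrays a group). The deleted genes did not settle it. SNF2, not centred, read 0.85 and 1.07 on the snf2 minimal arrays and 0.79 and 0.76 on the snf2 rich arrays of replicates 2 and 3, which is higher on arrays labelled as lacking it. A first SWI1 probe went with the labels, at -0.75 and -0.44 on the swi1 minimal arrays and -1.26 on swi1 rich replicate 2, and at 0.52 and 0.41 on snf2 minimal replicate 2 and snf2 rich replicate 3. The second went against them, at 1.32 and 0.68 on the swi1 rich arrays and -0.68 and -1.29 on the snf2 minimal arrays. All 66 pairs of arrays correlated positively over genes (r from 0.19 to 0.86). Missing values made up 3.19% to 16.2% of probes, apart from snf2 rich replicate 3, where 5299 of 8832 probes had a value. Array snf2 rich replicate 1 stood apart, its deposited values spreading with an SD of 1.40 where the rest had 0.60 to 0.83. YHB1 was measured on all 12.

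In rich medium YHB1 stood at -4.11, -4.06 and -4.07 on replicates 1, 2 and 3 of snf2. On the arrays labelled swi1 it stood at -3.43, -4.06 and -3.85 in the same order. In minimal medium the snf2 arrays read -1.26, -0.85 and -0.78, and the swi1 arrays -0.70, -0.61 and -0.60. All 12 values were below 0, every rich value lay below every minimal value, and the media were 2.80 apart in snf2 and 2.73 apart in swi1 at the nearest arrays. Of all genes measured on the same arrays, 11.8% in snf2 and 11.5% in swi1 had every rich value below every minimal value. RNA of whole cultures was measured, so less YHB1 RNA in each cell and fewer cells that hold it cannot be told apart.

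**Figure D1:**
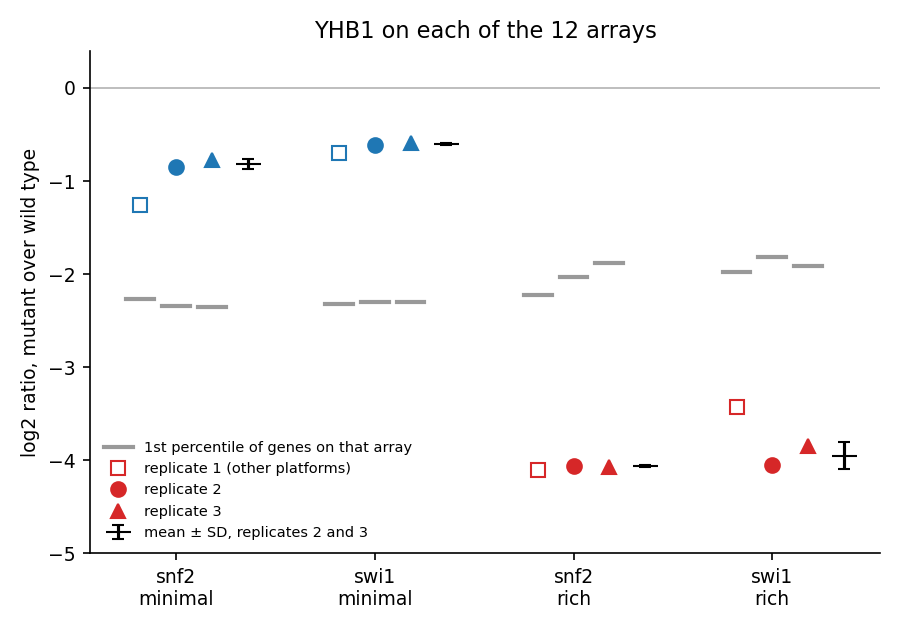
YHB1 on the 12 arrays: the vertical axis is the log2 ratio of mutant over wild type after centring, and the horizontal axis the group. Open squares are replicate 1, filled symbols replicates 2 and 3, bars their mean ± SD (n = 2), and grey dashes the 1st percentile of genes on each array; the rich values (-4.11 to -3.43) lie below the dashes and the minimal values (-1.26 to -0.60) above them.

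Over replicates 2 and 3 the mean was -4.06 ± 0.0092 in snf2 rich and -3.95 ± 0.15 in swi1 rich (SD, n = 2), which is 16.7 and 15.5 times less than in wild type. In minimal medium the means were -0.81 ± 0.052 and -0.60 ± 0.012, or 1.76 and 1.52 times less. From the lowest up, the order was snf2 rich, swi1 rich, snf2 minimal and swi1 minimal. The standard deviations of YHB1 compare with medians over all genes of 0.11 to 0.13 in these groups, and 4.25% of genes had a smaller one in snf2 rich, against 63.3% in swi1 rich.

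The place of YHB1 among the genes of an array followed the medium. It was the lowest gene of 5250 on snf2 rich replicate 2, of 5369 on swi1 rich replicate 2 and of 5167 on swi1 rich replicate 3. On snf2 rich replicate 3 it ranked 3 of 3850, and on replicate 1, whose probes are on another platform, it ranked 4 of 4585 in snf2 and 7 of 5346 in swi1. In minimal medium its rank from the lowest lay between 173 and 571. Rich values were thus at the edge of each array, and minimal values in the lower part but above the 1st percentile of genes.

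The difference between media, rich minus minimal, was -3.25 ± 0.13 in snf2 and -3.35 ± 0.13 in swi1 (estimate ± SE from limma, n = 2 arrays a group, no test because YHB1 was chosen for it). This was the lowest but 1 of 3559 genes in snf2 and the lowest of 4890 in swi1. The gene next below in snf2 was TAT1, an amino acid permease, at -4.84, with -2.48 and -5.43 on snf2 rich replicates 2 and 3. TAT1 was also next above YHB1 in swi1, at -3.25, and PHO12, an acid phosphatase with near-identical copies, was next above in snf2 at -2.88. On replicate 1 YHB1 differed between media by -2.85 in snf2 and -2.73 in swi1, ranking 8 of 4412 and 49 of 5069 genes. There the media lie on different platforms, so that difference also holds any difference between probes and tables. Each value is a difference of 2 ratios against wild type grown in the same medium, so a change in the mutant and a change in the wild type between media cannot be told apart.

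**Figure D2:**
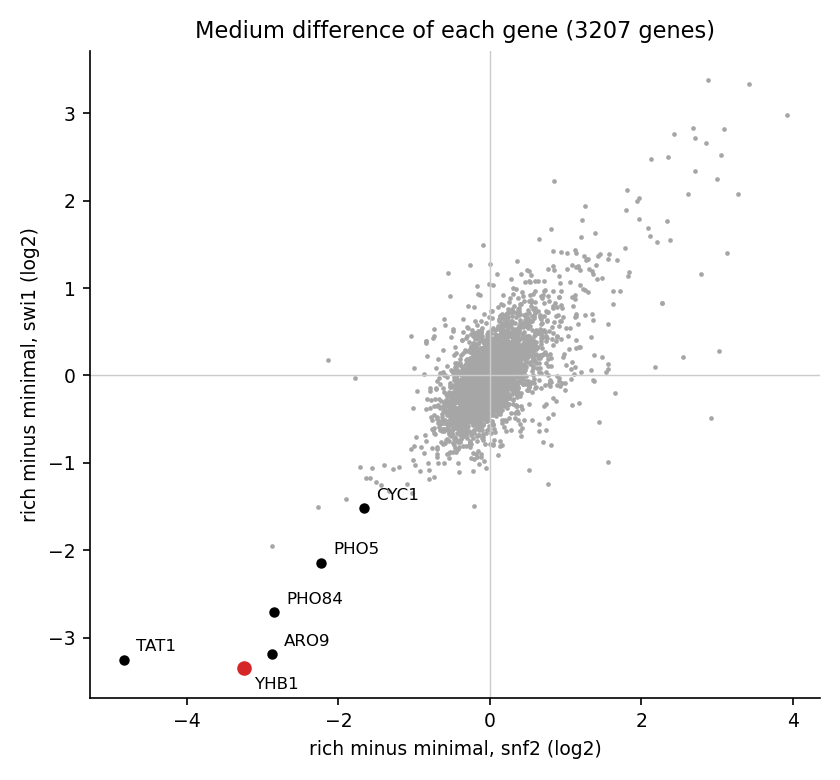
Rich minus minimal difference of each of 3207 genes measured on all 8 arrays, in snf2 (horizontal axis) and swi1 (vertical axis), on the log2 scale. Each grey point is a gene; YHB1, in red, stands at -3.25 and -3.35, with TAT1, ARO9, PHO84, PHO5 and CYC1 named.

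The mutants are set beside each other as a description, with no p-value, because a gene chosen for being low in both is likely to be alike in both. In rich medium snf2 minus swi1 was -0.11 ± 0.13 (95% interval -0.42 to 0.20, from limma). In minimal medium it was -0.21 ± 0.13 (95% interval -0.50 to 0.08). The difference between media, snf2 minus swi1, was 0.10 ± 0.19 (95% interval -0.34 to 0.53), and it was -0.006 without swi1 rich replicate 2. For the same reason the 3 intervals are not read as a test. They leave room for differences of up to about 0.5 on the log2 scale. In limma over all genes, 0 of 5123 genes (0%) passed in minimal medium, 1 of 3397 (0.0294%) in rich medium and 0 of 3207 (0%) for the difference between media. At an unadjusted p under 0.05 there were 280 (5.47%), 226 (6.65%) and 123 (3.84%).

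On the 3 arrays of each group YHB1 did not overlap between mutants, with snf2 lower in both media. Of all genes with values on the same 6 arrays, 4.9% had their 3 snf2 values below their 3 swi1 values in minimal medium and 5.63% in rich medium. In minimal medium the nearest values were -0.78 in snf2 and -0.70 in swi1, and in rich medium -4.058 and -4.057, a gap that exists only after centring. The deposited values in rich medium, before centring and before the sign was turned, were 3.622, 3.95 and 3.96 for snf2 and 3.365, 3.982 and 3.744 for swi1, which overlap. Replicate 1 gave snf2 minus swi1 of -0.55 in minimal and -0.68 in rich medium, larger than replicates 2 and 3 did.

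A list of 7 other genes tied to nitric oxide was followed, all of them on the arrays, of which 3 were measured on all 8 arrays of replicates 2 and 3. In rich medium limma called 1 of 3 higher and 1 lower in snf2, where it called 41.7% of all genes, 19.5% higher and 22.2% lower. In swi1 it called 2 of 5 higher and 1 lower, against 40.8% of all genes, 19.1% higher and 21.7% lower. In minimal medium 2 of 7 were higher and 1 lower in snf2, against 29.2% of all genes, 12.8% higher and 16.4% lower. In swi1 minimal 1 of 5 was higher and 1 lower, against 28.5% of all genes, 13.7% higher and 14.8% lower. FZF1 (YGL254W), the activator of YHB1 itself, read 0.44 and 0.66 on swi1 rich replicates 2 and 3 and 1.37 on replicate 1. It rose by 0.55 ± 0.10 there (adjusted p = 0.006), a call lost without swi1 rich replicate 3 (0.44, adjusted p = 0.0765), and stood at 0.18 and 0.27 in minimal medium, where it did not pass. In snf2 rich FZF1 was measured on replicates 1 and 2 only, at 0.57 and 0.38.

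DDR48 (YMR173W), a stress protein that nitric oxide induces together with YHB1, was lower in both media. It stood at -1.60 and -1.70 on snf2 rich replicates 2 and 3 and at -2.04 and -1.94 on those of swi1. In minimal medium the values were -1.11 and -1.02 in snf2 and -1.65 and -1.51 in swi1. It fell in all 4 groups, from -1.06 ± 0.09 in snf2 minimal (adjusted p = 0.000216) to -1.99 ± 0.09 in swi1 rich (adjusted p = 1.68e-05). On replicate 1 DDR48 read -0.57 in snf2 rich and -1.62 in swi1 rich, and it had no value in minimal medium. In the fit to all 12 arrays, with a random block for platform, the call in snf2 minimal was lost. No minimal value of replicate 1 entered that fit for DDR48.

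YOR387C, another gene of the nitric oxide response, went the other way. It rose by 1.02 ± 0.19 in snf2 rich and 1.16 ± 0.19 in swi1 rich (adjusted p = 0.00446 and 0.00317), with 1.09, 0.95, 1.15 and 1.17 on the arrays of replicates 2 and 3, but -0.29 and 0.06 on replicate 1, and its calls in all 4 groups were lost with all 12 arrays in the fit. SSU1 (YPL092W), the sulfite pump that Fzf1 also activates, was at -0.17 and 0.02 on swi1 rich replicates 2 and 3 and -0.98 on replicate 1. In snf2 rich SSU1 read -1.35 on replicate 1 and -0.40 on replicate 3, with no value on replicate 2. In minimal medium it stood at -0.16 in snf2 and -0.32 in swi1, with 0.345 and 0.093 on replicate 1. SFA1 (YDL168W), the enzyme that breaks down S-nitrosoglutathione, was at -0.25 in snf2 rich and -0.07 in swi1 rich, with -0.83 and 0.11 on replicate 1. Neither SSU1 nor SFA1 passed in any group tested. YNR064C, a hydrolase, was tested in snf2 minimal only, at 0.41 ± 0.11 (adjusted p = 0.0625). VEL1 (YGL258W) was tested there too, at 0.81 ± 0.19 (limma, adjusted p = 0.0394), with 0.49 and 1.14 on replicates 2 and 3. The call was lost without swi1 minimal replicate 2 or 3 or snf2 minimal replicate 3, and with all 12 arrays in the fit. On replicate 1 VEL1 read 3.295 in snf2 minimal and 2.713 in swi1 minimal. Of the listed genes tested in rich medium, DDR48 was the lowest. YHB1 was chosen for being lowest there, so that no listed gene reached its size was fixed by that choice.

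Between media, limma called 5% of all genes in snf2 (3.71% higher, 1.29% lower) and 6.26% in swi1 (4.19% higher, 2.07% lower). Of the nitric oxide genes, 1 of 3 was called in snf2 (DDR48, -0.58, lost without any 1 of the 8 arrays, adjusted p = 0.0616 to 0.173) and 0 of 5 in swi1 (1 at an unadjusted p under 0.05). Their medians were -0.44 and 0.25, beside medians over all genes of -0.02 and -0.05. These medians cover different genes, since FZF1 (0.28) and SSU1 (0.25) were tested in swi1 only. DDR48, SFA1 and YOR387C, tested in both, stood at -0.58, -0.44 and 0.13 in snf2 and at -0.41, -0.25 and 0.33 in swi1.

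**Figure D3:**
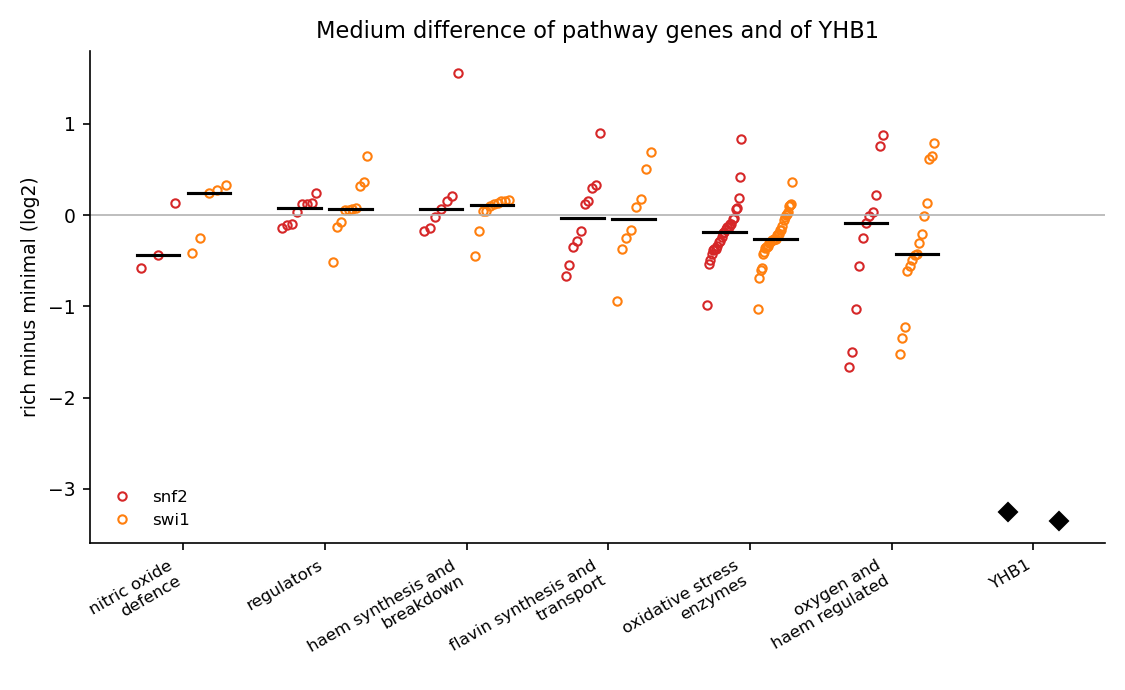
Rich minus minimal difference (log2) of each tested member of 6 gene lists, with snf2 in red, swi1 in orange and black lines at the medians; black diamonds are YHB1 in snf2 and swi1. No listed gene comes below -1.66 (CYC1 in snf2), while YHB1, which was chosen for this difference, stands at -3.25 and -3.35.

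Among 12 known regulators of oxygen, haem and stress genes, 0 of 8 in snf2 and 0 of 10 in swi1 were called between media by limma (0 and 2 at an unadjusted p under 0.05). Over all genes 5% and 6.26% were called, so these counts do not set so short a list apart. In rich medium 1 rose and 2 fell of 8 in snf2, and 0 rose and 1 fell of 10 in swi1, beside 19.5% higher and 22.2% lower, and 19.1% and 21.7%, of all genes. HAP4 (YKL109W), the activating subunit of the CCAAT-binding complex, stood at -0.75 and -0.51 on snf2 rich replicates 2 and 3 and at -0.59 and -0.27 on those of swi1. Its calls there (-0.63 and -0.43, adjusted p = 0.00403 and 0.0191) were lost without snf2 rich replicate 2 (adjusted p = 0.0550) and without swi1 rich replicate 2 (adjusted p = 0.204), and all 4 HAP4 calls were lost with all 12 arrays in the fit. In minimal medium HAP4 stood at -0.87 and -0.75 (adjusted p = 0.00165 and 0.0035), so it was not lower in rich medium as YHB1 was. On replicate 1 it read 1.90 in snf2 rich and between -2.86 and -1.24 in the other groups. HAP1 (YLR256W), the haem-responsive activator, stood at -0.54 in snf2 rich (lost without snf2 rich replicate 3, at -0.37) and at -0.28 in swi1 rich, which did not pass. In minimal medium HAP1 stood at -0.66 and -0.93 (limma, adjusted p = 0.0145 and 0.00469). Each minimal call was lost without at least 1 array of its own group, and both were kept with all 12 arrays in the fit. On replicate 1 HAP1 read -1.59 and -0.86 in rich and -1.045 and -1.55 in minimal medium.

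Genes that supply the prosthetic groups of flavohaemoglobin were mixed. For synthesis and breakdown of haem, limma called 0 of 8 in snf2 rich (2 at an unadjusted p under 0.05) and 1 higher and 2 lower of 10 in swi1 rich. The swi1 rich calls were lost without its replicate 2 or 3, where calls over all genes also fell. Between media limma called none (0 of 7 and 0 of 10, with 0 and 1 at an unadjusted p under 0.05). Over all genes it called 41.7% in snf2 rich and 40.8% in swi1 rich, and 5% and 6.26% between media. HEM3 (YDL205C), the porphobilinogen deaminase, stood at -0.33 and -0.45, and the second call was lost without swi1 rich replicate 2 or 3 (adjusted p = 0.088 to 0.127). HEM1 (YDR232W), the first enzyme of haem synthesis, stood at -0.48 and -0.27 and did not pass. HEM12 (YDR047W), the uroporphyrinogen decarboxylase, ranged from -2.76 to 0.10 between replicates 2 and 3 of snf2 minimal, so its difference between media in snf2 (1.56 ± 0.74) is within the spread of arrays. For flavin synthesis and transport, 3 rose and 3 fell of 10 in snf2 rich and 3 rose and 3 fell of 8 in swi1 rich. Over all genes 41.7% and 40.8% were called there. The falls were fewer without replicate 3 of either group, as were calls over all genes. RIB5 (YBR256C), riboflavin synthase, rose by 1.10 ± 0.11 and 0.81 ± 0.11 in rich medium (adjusted p = 0.000346 and 0.00154). RIB1 (YBL033C), the first enzyme of riboflavin synthesis, rose by 1.01 ± 0.15 and 0.91 ± 0.15 there on replicates 2 and 3. On replicate 1 RIB1 read -0.86 in snf2 rich and 0.09 in swi1 rich, and both calls were lost with all 12 arrays in the fit. RIB4 (YOL143C), lumazine synthase, stood at -0.29 in snf2 rich and fell by 0.74 ± 0.10 in swi1 rich.

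Of 32 enzymes against oxidative stress, limma called 6 of 25 higher and 2 lower in snf2 rich and 7 of 32 higher and 4 lower in swi1 rich, beside 19.5% and 22.2%, and 19.1% and 21.7%, of all genes. In minimal medium 9 of 32 were higher and 3 lower in snf2, and 13 of 32 higher and 3 lower in swi1, beside 12.8% higher and 16.4% lower, and 13.7% and 14.8%, of all genes. The counts of higher genes in rich medium fell without snf2 rich replicate 3 and without swi1 rich replicate 2 or 3. The count of lower genes in swi1 rich fell without its replicate 3. Calls over all genes fell in these fits too. GPX2 (YBR244W), a glutathione peroxidase, was the lowest of the list in each of the 4 groups. On snf2 rich replicates 2 and 3 it read -2.58 and -2.79, on those of swi1 -2.32 and -2.48, and on replicate 1 it read 0.74 in snf2 and -2.39 in swi1. GPX2 was lower in rich medium at -2.68 ± 0.12 and -2.40 ± 0.12 (adjusted p = 9.67e-06 and 2.57e-05) and in minimal medium at -1.70 and -1.37; with all 12 arrays in the fit only the swi1 rich call passed. MXR1 (YER042W), the methionine sulfoxide reductase, rose by 0.83 ± 0.13 and 1.07 ± 0.13 in rich medium and by 0.86 and 0.95 in minimal medium; with all 12 arrays in the fit only its swi1 rich call passed. GRX5 (YPL059W), a mitochondrial glutaredoxin, stood between -0.34 and 0.40 and did not pass in any group.

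A list of 17 genes was drawn up for answers to oxygen or haem. Of these, 5 of 11 fell and 1 rose in snf2 rich, and 9 of 16 fell and 1 rose in swi1 rich. The list holds CPR1 (YDR155C), a cyclophilin gene that is not known for such an answer. CPR1 is 1 of the 9, at -1.29, and counts in the swi1 rich median below. It was not tested in snf2 rich or between media. Over all genes 22.2% and 21.7% fell and 19.5% and 19.1% rose. The list had medians of -0.41 and -0.44 beside 0.01 and -0.0027 over all genes. Fewer than 9 fell without swi1 rich replicate 2 or 3, where calls over all genes also dropped. Between media 2 of 11 fell and 1 rose in snf2, and 3 of 15 fell and 1 rose in swi1. Over all genes 1.29% and 2.07% were called lower and 3.71% and 4.19% higher. Without snf2 rich replicate 3 more of the list fell in snf2, and calls over all genes increased too.

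CYC1 (YJR048W), the main cytochrome c, read -1.31 and -1.29 on snf2 rich replicates 2 and 3, -1.21 and -1.12 on those of swi1, and -0.93 and -1.24 on replicate 1. In minimal medium CYC1 read 0.54 and 0.19 in snf2 and 0.30 and 0.41 in swi1, with -0.08 and -0.31 on replicate 1. It fell by 1.30 ± 0.11 and 1.17 ± 0.11 on the log2 scale in rich medium, and the difference between media was -1.66 ± 0.15 and -1.52 ± 0.15 (adjusted p = 0.000974 and 0.00166). CYB5 (YNL111C), cytochrome b5, fell by 1.08 ± 0.11 and 0.67 ± 0.11 in rich medium and differed between media by -1.50 and -1.22 (adjusted p = 0.00164 and 0.00428). Both genes were above 0 in minimal medium on replicates 2 and 3, where YHB1 was below 0. Those 4 calls in minimal medium were each lost without at least 1 array of their own group (adjusted p up to 0.362). COX5B (YIL111W), the oxygen-repressed subunit of cytochrome oxidase, went the other way, with -1.20 and -1.06 in minimal medium (both calls lost with all 12 arrays in the fit) and -0.32 and -0.27, which did not pass, in rich medium. CYC7 (YEL039C), the second cytochrome c, rose by 0.78 in snf2 rich (lost without replicate 3, 0.53, adjusted p = 0.153, and with all 12 arrays) and stood at 0.35 in swi1 rich.

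YHB1 lies on chromosome VII, and the 4 genes on each side of it in the order of the reference annotation were set beside it. PHO81 (YGR233C), the inhibitor of the cyclin-dependent kinase of the phosphate pathway, is its neighbour upstream. By the strand letters of their names the 2 genes are read away from each other, with no other annotated gene between them. PHO81 read -1.27 and -1.43 on snf2 rich replicates 2 and 3 and -1.28 and -0.82 on those of swi1, but 0.24 on snf2 rich replicate 1 and -1.05 on swi1 rich replicate 1. It was lower in rich medium at -1.35 ± 0.13 and -1.05 ± 0.13 (adjusted p = 0.00049 and 0.00178). In swi1 minimal PHO81 stood at -0.21, and its difference between media there, -0.83 ± 0.18, did not pass in limma (adjusted p = 0.0522). Neither snf2 minimal nor the snf2 difference between media was tested for PHO81. With all 12 arrays in the fit neither fall of PHO81 passed (-0.67, adjusted p = 0.185, and -0.90, adjusted p = 0.119).

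MIC26 (YGR235C), a protein of the mitochondrial inner membrane, lies downstream and is read towards YHB1. It fell by 0.66 ± 0.11 and 0.73 ± 0.10 in rich medium (adjusted p = 0.00263 and 0.00195) and stood at -0.03 and -0.21 in minimal medium. The difference of MIC26 between media, -0.63 ± 0.15 and -0.52 ± 0.15, did not pass in limma (adjusted p = 0.0637 and 0.0865). PHB2 (YGR231C), a prohibitin, stood at -0.37 and -0.41 in rich medium, and both calls were lost without single arrays (adjusted p = 0.051 to 0.329) and without centring (adjusted p = 0.107 and 0.0619). BNS1, NAS6, SPG1, YGR237C and KEL2 did not pass in any group tested. YGR237C was not tested in swi1 rich, nor KEL2 in snf2 rich.

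**Figure D4:**
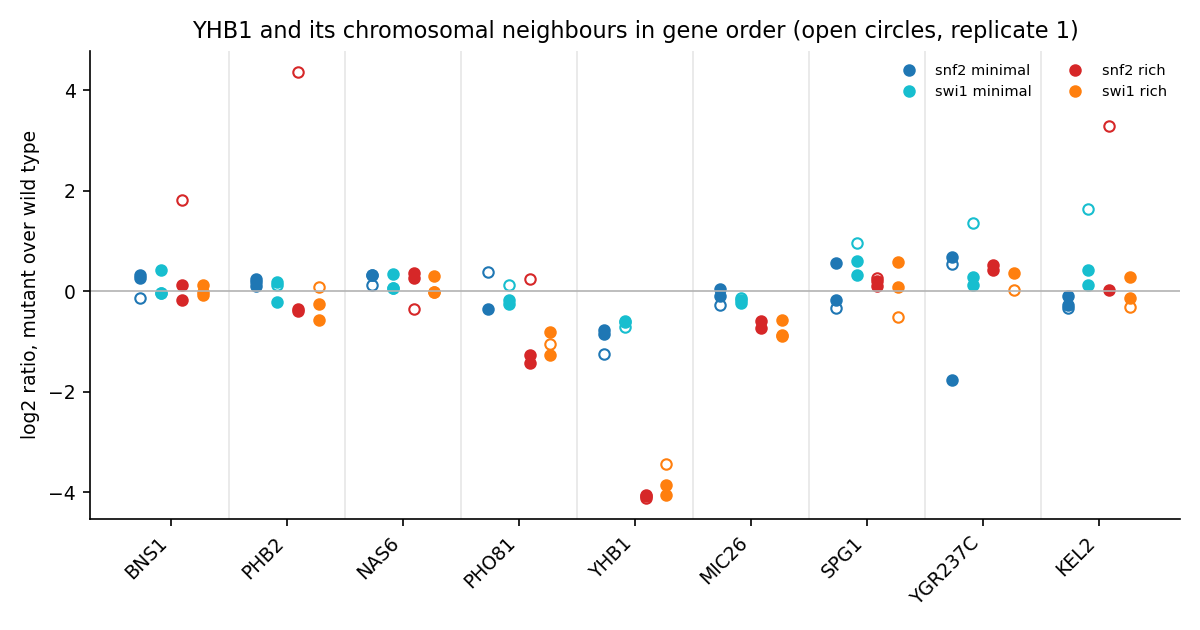
YHB1 and the 4 genes on each side in chromosome order (horizontal axis) with the log2 ratio of mutant over wild type of each array (vertical axis); colours are the 4 groups and open circles replicate 1. PHO81 and MIC26, on the 2 sides of YHB1, lie below 0 in rich medium on replicates 2 and 3, and some open circles of snf2 rich (PHB2 at 4.36, KEL2 at 3.29) stand far from the filled ones.

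Genes with the pattern most like that of YHB1 were sought over the 8 arrays of replicates 2 and 3 among the other 3206 genes measured on all of them. Likeness was measured by Pearson's r and by the root mean square difference of the log2 values. Since the arrays fall into rich and minimal clusters, r mostly reflects how large the difference between media is beside the spread of arrays, and it is given as a description only. The 8 genes with the highest r (0.983 to 0.993, beside a median of 0.084) were PHO5, CYC1, RPC53, ARO9, CHA1, YGR079W, PHO84 and PRM7, and 130 genes had r over 0.9. The 5 nearest in size were PHO84 at a root mean square difference of 0.46, ARO9 at 0.93, PHO5 at 0.99, PHO3 at 1.16 and SPL2 at 1.20, of which 3 are in both lists.

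PHO84 (YML123C), the high-affinity phosphate transporter, read -3.69 and -3.90 on snf2 rich replicates 2 and 3, -3.35 and -2.90 on those of swi1, and -0.97, -0.93, -0.53 and -0.30 on the minimal arrays of snf2 and swi1. On replicate 1 PHO84 read -4.85 and -4.57 in rich medium but -2.65 and 0.91 in minimal medium, where YHB1 read -1.26 and -0.70. PHO5 (YBR093C), the repressible acid phosphatase, was at -2.78 and -2.51 in rich and -0.55 and -0.37 in minimal medium. PHO3 (YBR092C) is a close copy of PHO5, so their probes may share signal. SPL2 (YHR136C), a regulator of phosphate transport, stood at -2.69 and -2.13 in rich and -0.98 and -1.08 in minimal medium.

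ARO9 (YHR137W), an aromatic amino acid transaminase, stood at -3.07 and -2.92 in rich and -0.20 and 0.27 in minimal medium. CHA1 (YCL064C), the serine deaminase, was at -1.44 and -1.36 in rich medium, and PRM7 (YDL039C), a pheromone-regulated gene, at -1.31 and -1.12. RPC53 (YDL150W), a subunit of RNA polymerase III, was at -0.88 and -0.86 and YGR079W at -1.44 and -1.28. On replicate 1, which the search did not use, the rich values of snf2 and swi1 were 0.14 and 0.16 for RPC53 and 0.30 and 0.23 for YGR079W. The other 8 genes were below 0 on both rich arrays of replicate 1, between -4.85 and -0.52.

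**Figure D5:**
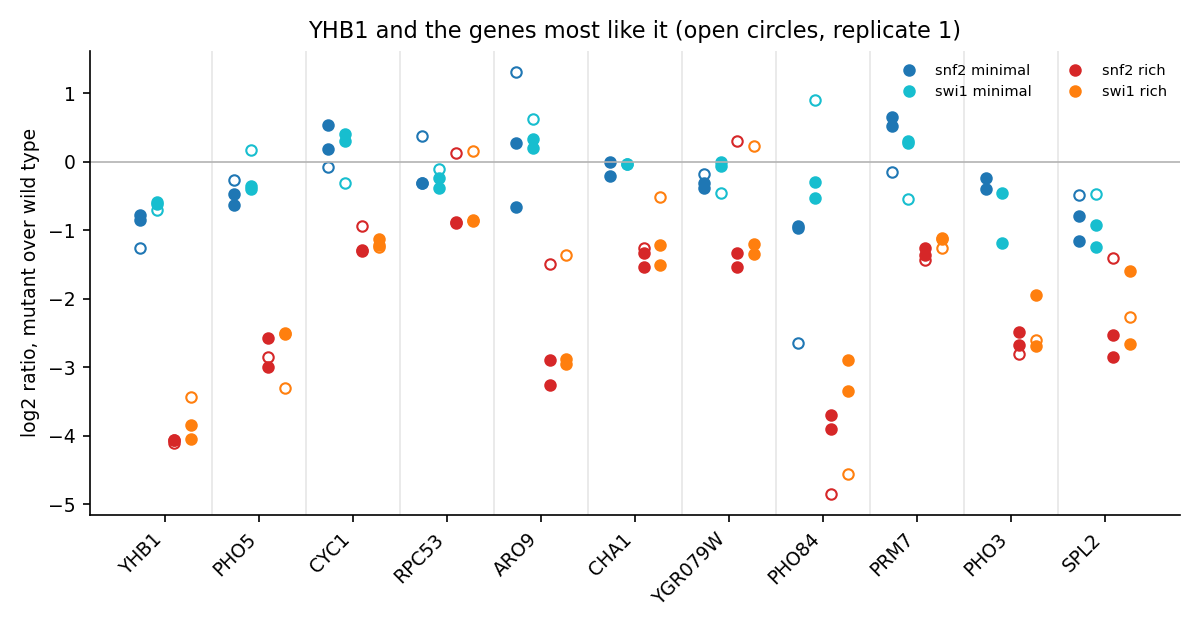
YHB1 and the 10 genes most like it by r or by size (horizontal axis) with the log2 ratio of mutant over wild type on each array (vertical axis); colours are the 4 groups and open circles replicate 1. PHO84 comes nearest to YHB1 in rich medium, and RPC53 and YGR079W are above 0 on the rich arrays of replicate 1.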

How the data were processed

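Each of 3 deposited tables, 1 per platform, holds the authors' value of every probe on each array. Per the labels, images were read with ScanAlyze (version 2.24 for replicates 2 and 3). What the authors deposited is a log2 ratio between channels; normalisation, centring and numerator are not given in the sources used here. Base 2 was checked on the table of 8 arrays, where 15.3% to 18.8% of values lay on log2 of simple whole-number ratios and 6.49% to 7.08% did after a shift. With log10 it was 15.2% to 18.5% before and 12.9% to 15.7% after, and with natural logs 9.53% to 10.6% and 7.81% to 8.89%. The share before the shift thus does not separate log2 from log10, and the check rests on the drop after it. Base 2 was taken over for replicate 1 (7.34% to 9.64% before and 5.70% to 7.16% after the shift). Column medians of deposited values ran from -0.48 to -0.03. Signal over background is not given, so the number of arrays is the stated limit on precision.

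Probes with 1 gene in the platform tables (5548, 6956 and 5516 of 6400, 8832 and 6384) were matched by gene identifier to the RefSeq table of assembly R64, which named all of them. The sign was turned, spots of a gene averaged and arrays centred on the median gene. limma 3.58.1 (R 4.3.3) was fitted to 8 arrays with 1 mean per group, using for each comparison the genes with 2 values in every group it involves; tests were two-sided, with Benjamini-Hochberg adjusted p under 0.05 called. The fit was tested on simulated data. Differences between mutants for YHB1 were fitted in the same way, but their p-values are not used, because YHB1 was chosen on the group values they compare. Replicate 1 entered no test outside the 12-array alternative.

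The gene, its 6 gene lists and the comparisons were chosen with earlier results of these data known. Genes were named by rule: all nitric oxide genes, in each other list the 2 members with the largest difference between media and the 2 with the largest mean over groups, 4 neighbours a side, the 8 most like YHB1 by r and 5 by size, genes ranked next to YHB1 between media, and SNF2 and SWI1. SER3 was added for the direction. Alternatives were no centring, a common spread, leaving out arrays, a replicate block, 12 arrays with platform as a random block, genes measured on all 8 arrays, medians of spots, a robust prior and Spearman's rho.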

Additional observations from a re-analysis of the deposited data

Results flagged for a closer look

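Named genes whose mutant effect differed between media in limma are given with rich minus minimal on the log2 scale; YHB1 itself was not tested for this. CYC1 differed by -1.66 in snf2 and -1.52 in swi1, and CYB5 by -1.50 and -1.22, calls that no single left-out array ended. COX5B differed by 0.88 in snf2 and 0.79 in swi1; without snf2 minimal replicate 3, snf2 rich replicate 3 or swi1 minimal replicate 2 or 3 the first did not pass (adjusted p = 0.0604 to 0.130), and without any of the 4 swi1 arrays the second did not (adjusted p = 0.0581 to 0.180). GPX2 differed by -0.98 in snf2, lost without snf2 minimal replicate 2 or snf2 rich replicate 3 (adjusted p = 0.0862 to 0.120), and by -1.03 in swi1, lost without swi1 minimal replicate 3 or swi1 rich replicate 3 (adjusted p = 0.0824 to 0.115). RIB5 differed by 0.90 in snf2, lost without snf2 minimal replicate 2 or 3 or snf2 rich replicate 3 (adjusted p = 0.0749 to 0.117), and by 0.70 in swi1, lost without any array but the 2 of snf2 rich (adjusted p = 0.0789 to 0.189). RIB4 differed by -0.94 in swi1 (adjusted p = 0.0514 without swi1 minimal replicate 2), and DDR48 by -0.58 in snf2 (adjusted p = 0.0616 to 0.173 without any 1 array). Both COX5B calls, RIB5 in swi1 and DDR48 in snf2 also did not pass with the replicate number as a block. In the fit to all 12 arrays both COX5B calls, both GPX2 calls, RIB4 in swi1 and DDR48 in snf2 did not pass. With arrays scaled to 1 spread both GPX2 calls, RIB5 in swi1 and DDR48 in snf2 did not, and without centring DDR48 did not. Whether these effects differ between the mutants was tested by limma and passed for none of these named genes. Groups of 3 arrays are too small for the search for outlying arrays.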

How the results depend on the processing

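The YHB1 values kept their sign in every alternative run. In the order snf2 minimal, swi1 minimal, snf2 rich and swi1 rich, they were -0.91, -0.67, -3.68 and -3.60 with arrays scaled to 1 spread. Without centring the first 3 were -0.75, -0.55 and -3.955. In the fit to all 12 arrays, with a random block for platform, snf2 minimal was -0.92 and snf2 rich -4.13. The difference between media was -2.77 in snf2 and -2.93 in swi1 with arrays scaled. Leaving out 1 array gave ranges of -0.85 to -0.78, -0.61 to -0.60, -4.07 to -4.06 and -4.06 to -3.85 for the levels, and of -3.29 to -3.21 and -3.45 to -3.24 for the differences between media. Snf2 minus swi1 then ranged from -0.25 to -0.17 in minimal and from -0.22 to -0.0075 in rich medium. The difference of their medium effects ranged from -0.006 to 0.20, the former without swi1 rich replicate 2.

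Counts of called genes over the whole table were 351, 339, 538 and 422 in that fit, against 1550, 1526, 1543 and 2051, and 93 and 94 against 178 and 306 between media. On genes measured on all 8 arrays snf2 minimal had 1033, with fewer genes tested. Leaving out 1 array gave 685 to 1551, 586 to 1526, 1029 to 1505 and 1054 to 2077, and 77 to 229 and 113 to 311 between media. Replicate numbers are not known to pair the arrays: replicate differences correlated between groups at r = -0.031 to 0.019. With the replicate block the counts were 1385, 1326, 1438 and 1865, and 134 against 178 and 211 against 306 between media. Of 63 calls of named genes, 35 passed without any 1 array, 39 were lost with all 12 arrays, 8 with the replicate block, 6 with scaling and 4 without centring. PHB2 in snf2 rich turned to 1.32 with all 12 arrays (adjusted p = 0.260), where snf2 rich replicate 1 read 4.36, and YGR237C in snf2 minimal to 0.67 (adjusted p = 0.0394) without snf2 minimal replicate 2, which read -1.76. By Spearman's rho, 2 of the 8 genes most like YHB1 were the same (14 genes tied at or above the eighth). Other causes were not tested.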
